A study of Mus musculus with 2 samples.

Results

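All cells labelled with sample tag 4 were compared with all cells labelled with sample tag 3 in a single-cell experiment on 4T1 mammary tumours under anti-PD-1 antibody. The 2 tags hold 8073 of the 12018 cells of the series, 6620 in tag 3 and 1453 in tag 4, and both tables list the same 468 genes. 4T1 is a mouse mammary carcinoma line, here grown in the mammary fat pad of female BALB/c mice of 8 weeks until tumours reached about 70 mm3 at day 7. The mice then received isotype control antibody, anti-Siglec-E alone, anti-PD-1 alone (clone RMP1-14) or both blocking antibodies, with 6 mice per arm and 2 tumours per arm taken for cells.

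Tags 3 and 4 share 1 cartridge and are the anti-PD-1 arm and the anti-PD-1 plus anti-Siglec-E arm, so that both arms carry tumour and PD-1 blockade and differ in Siglec-E blockade. The labels do not say which tag is which arm, and tag numbers are kept throughout, so no direction below belongs to an arm. Each tag is 1 suspension, in which tumours of an arm cannot be told apart, so differences between tags have no replicate check and no p-value. Intervals are exact 95% intervals for shares (Clopper-Pearson) or for molecule counts (Poisson), and they cover counting error only. Epithelial and other cells were parted with EPCAM beads and put together again at 1 to 4, so the share of tumour cells was set by the experimenters.

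PD-1 (Pdcd1) restrains T cells that have been activated, and its ligand PD-L1 (Cd274) is carried by tumour and myeloid cells. Siglec-E (Siglece) is an inhibitory receptor of mouse neutrophils and other myeloid cells that binds sialic acid on neighbouring cells. 4T1 tumours are known for filling blood and tumour with neutrophils, which can restrain T cells.

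Tag 3 held 13619599 molecules, with a median of 1404.5 molecules and 92 genes per cell, and tag 4 held 3397874 molecules, with a median of 1565 molecules and 98 genes per cell. No cell index was shared by the tags. Cells were placed in gates by summed marker molecules: at least 3 for T cells (Cd3d, Cd3e, Cd3g), tumour cells, macrophages with C1q genes or Trem2, B, NK, mast or basophil and stromal cells, at least 10 of Ccr2, Flt3 and class II genes for monocytes or dendritic cells, and at least 5% of molecules from S100a8 and S100a9 for neutrophils. Cells of more than 1 lineage, or of 1 lineage with at least 20% of S100a8 and S100a9, are called mixed, and the rest ungated. Of the 35 gate markers, 28 are on the panel.

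Tag 4 held a larger share of T cells and tumour cells and a smaller share of neutrophils than tag 3. Neutrophils made up 60.1% of tag 3 (58.9 to 61.2, 3976 cells) and 47.9% of tag 4 (45.3 to 50.5, 696 cells). T cells were 5.24% of tag 3 (4.72 to 5.81, 347 cells) and 9.50% of tag 4 (8.04 to 11.1, 138 cells), a ratio of 1.81. Tumour cells were 5.38% of tag 3 (4.85 to 5.95, 356 cells) and 13.3% of tag 4 (11.6 to 15.1, 193 cells), a ratio of 2.47. For these 3 gates the intervals of the tags lay apart. Among gated leukocytes, which leave out the tumour cells, T cells were 7.41% in tag 3 and 14.6% in tag 4, a ratio of 1.97 with the tumour cells set aside. Tag 3 held 11.5 neutrophils per T cell and tag 4 held 5.04.

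The T cell gate was larger in tag 4 in each of its named subsets. CD8 T cells, the cytotoxic subset, were 2.07% of tag 3 (1.74 to 2.44, 137 cells) and 3.85% of tag 4 (2.92 to 4.98, 56 cells). Foxp3-positive T cells, the regulatory subset that holds back other T cells, were 0.559% of tag 3 (0.394 to 0.770, 37 cells) and 1.38% of tag 4 (0.843 to 2.12, 20 cells). Other CD4 T cells were 1.22% of tag 3 (0.973 to 1.52, 81 cells) and 2.27% of tag 4 (1.57 to 3.17, 33 cells). The intervals lay apart for all 3, and overlapped for the remaining T cells (1.39% and 2.00%). Before mixed cells are set aside, 779 cells of tag 3 and 250 of tag 4 reached 3 Cd3 molecules, of which 127 and 27 held exactly 3, and 258 and 45 lay just below. The mix within the T cell gate was much closer: CD8 cells were 39.5% of it in tag 3 (34.3 to 44.8) and 40.6% in tag 4 (32.3 to 49.3), and Foxp3-positive cells were 10.7% (7.62 to 14.4) and 14.5% (9.08 to 21.5). There were 3.70 CD8 T cells per Foxp3-positive T cell in tag 3 and 2.80 in tag 4, with these overlapping intervals behind them.

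The other gates were small. Monocytes or dendritic cells were 2.39% of tag 3 (2.03 to 2.78, 158 cells) and 3.72% of tag 4 (2.80 to 4.82, 54 cells), with intervals apart. Macrophages with C1q genes, the first component of complement, were 1.68% of tag 3 (1.38 to 2.02, 111 cells) and 2.48% of tag 4 (1.74 to 3.41, 36 cells), with overlapping intervals. This ratio turned when every cell was thinned to 500 molecules, to 1.71% and 1.53%, where the monocyte or dendritic shares were 2.41% and 5.39%. NK cells (58 and 9 cells), B cells (28 and 12 cells) and stromal cells (21 and 12 cells) had overlapping intervals. The mast cell or basophil gate held 5 cells of tag 3 and none of tag 4, but 25 cells of tag 3 and 8 of tag 4 reached 3 molecules of its markers, and the others of these carried a second lineage or abundant S100a8 and are mixed, so the gate gives no comparison. Over all cells the 3 summed mast cell markers were at 152 CPM (molecules per 1000000) in tag 3 and 475 in tag 4, and in mixed cells at 693 and 2274. Of 7 mast cell and basophil genes, chosen for mention after their values were seen, Cpa3, Fcer1a and Il1rl1 were more than 2-fold higher in tag 4 and Il4 and Il13 more than 2-fold lower. A single cell held between 14.8% and 83.1% of the higher tag's molecules of each.

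**Figure D1:**
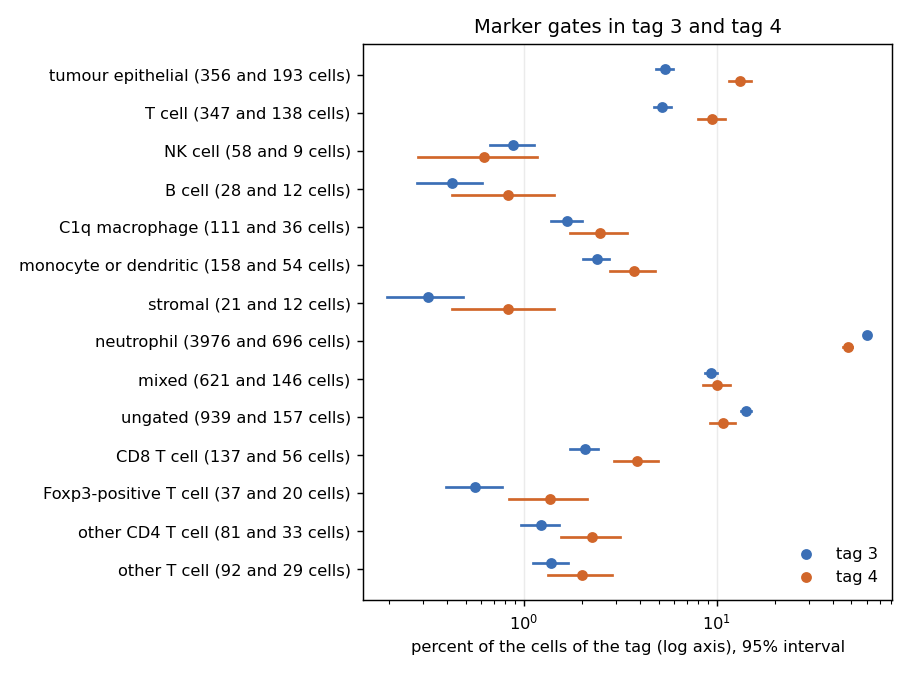
Share of each marker gate among all cells of tag 3 (blue) and tag 4 (orange), in percent on a log axis; lines are exact 95% intervals and cell numbers stand beside the names. Neutrophils are lower in tag 4 (60.1% and 47.9%), and T cells (5.24% and 9.50%) and tumour cells (5.38% and 13.3%) higher.

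A block of cells stood between gates and was nearly as large in both tags. Mixed cells were 9.38% of tag 3 (621 cells) and 10.05% of tag 4 (146 cells), with a median of 4243 and 4172 molecules. Of them, 304 in tag 3 and 54 in tag 4 paired T cell markers with abundant S100a8. These cells held 5.25 and 5.57 molecules of Cd3d per cell, near the count of the T cell gate (5.32 and 5.62). They held 0.217 and 1.28 of Cd3e, against 4.32 and 4.91 in the T cell gate, and 0.507 and 3.81 of Cd3g, against 11.5 and 14.4. They also held 33.4 and 31.2 molecules per cell of Csf3r, the G-CSF receptor of neutrophils. These counts are not scaled for depth, which was a median of 4789 and 4765.5 molecules here and 887 and 877 in the T cell gate. In the neutrophil gate Cd3d was seen in 14.9% and 15.9% of cells and Cd3e in 0.855% and 0.862%, at a median depth of 1416 and 1413 molecules. With the T cell gate built from Cd3e and Cd3g alone, mixed cells became 5.05% of tag 3 and 6.95% of tag 4.

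Summed over all cells, T cell and tumour genes were higher in tag 4 and neutrophil genes lower. A gene counts as measured with at least 30 molecules in both tags together, and as called when its molecules per 1000000 of the tag or gate (counts per 1000000, CPM) differ by at least 2-fold. Of 438 measured genes, 65 were called higher in tag 4 (14.8%) and 9 lower (2.05%), 74 in all (16.9%). The median gene stood at a log2 ratio of 0.33, and S100a8 alone took 26.5% of all molecules in tag 3 and 20.7% in tag 4. Scaling by the trimmed mean of M-values (TMM) shifts all ratios down by 0.32 on the log2 scale and leaves 16 genes higher and 11 lower. In 35 of the 74 called genes over 10% of the molecules of the higher tag came from 1 cell, and this holds for all 9 that were lower.

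Pdcd1, the target of the antibody that both arms share, was measured at 176 CPM in tag 3 (169 to 184) and 430 in tag 4 (408 to 452), a log2 ratio of 1.28 and of 0.96 relative to the median gene. It was seen in 4.43% of tag 3 cells and 9.70% of tag 4 cells, and in 0.377% and 0.431% of neutrophils, which should lack it. Siglece, the target of the other antibody, was at 422 (411 to 433) in tag 3 and 325 (306 to 345) in tag 4, a log2 ratio of -0.37. Cd274 was at 4026 in tag 3 and 3198 in tag 4, a log2 ratio of -0.33, and Cd33, another sialic acid receptor of myeloid cells, at 932 and 717. Among the 9 measured genes of the list of antibody targets and partners, Pdcd1 alone was called.

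The largest ratios carried by many cells were Hmga2 and Ccr8. Hmga2, a chromatin protein of embryonic and tumour cells, was at 23.9 CPM in tag 3 (21.4 to 26.7) and 72.4 in tag 4 (63.6 to 82.0), a log2 ratio of 1.60. Ccr8, a chemokine receptor of regulatory T cells in tumours, was at 10.9 (9.25 to 12.8) and 32.4 (26.6 to 39.0), a log2 ratio of 1.57. Il12rb1, a chain of the interleukin 12 receptor, followed at 1.42. Relative to the median gene these 3 stayed past 2-fold, at 1.27, 1.24 and 1.10. The others of the 12 highest were Tyms and Aurkb of dividing cells, Msln of the tumour gate, Csf2, and the T cell genes Tnfrsf18, Pdcd1, Foxp3, Cd8a and Cd27, with log2 ratios between 1.22 (Cd27) and 1.33 (Tyms). Tnfrsf18 and Tyms kept their calls under TMM and lost them under the median of ratios, and the other 7, Pdcd1 among them, lost them under both. The median of ratios was taken over all genes seen in both tags, and the median gene over measured genes only. Tyms lies at the limit between them, at 1.01 relative to the median gene.

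By list, the regulatory T cell genes stood highest, with 6 of 10 measured members called higher and a median log2 ratio of 1.12, against 14.8% and 0.33 over all genes. Relative to the median gene Ccr8 alone of the 6 stayed past 2-fold, and Foxp3 stood at 0.90. Their called members were Foxp3, Il2ra, Ikzf2, Tnfrsf18, Ccr8 and Lrrc32, and the abundant members Ctla4 (377 and 714 CPM) and Il10 (156 and 155) were not called. Of the 12 costimulation genes 5 were called higher, which are Icos, Tnfrsf4, Tnfrsf18, Cd27 and Il2ra, with a median of 0.87. Of the 15 cytotoxic effector genes 4 were called higher, Gzmb, Gzmk, Ifng and Cst7, with a median of 0.83, while Ccl5, a chemokine of cytotoxic cells, was level (1872 and 2074). A single cell of tag 4 held 33.0% of its Ifng and 24.3% of its Gzmb. Of 11 checkpoint genes 3 were called higher, Pdcd1, Tigit and Tox, and of 8 proliferation genes 3, Top2a, Tyms and Aurkb. Relative to the median gene none of the called cytotoxic, checkpoint or costimulation genes was past 2-fold, with Gzmb at 0.80, Ifng at 0.87, Pdcd1 at 0.96 and Tigit at 0.70, and of the proliferation genes Tyms alone was, at 1.01. None of the 9 neutrophil maturation and granule genes was called, and 1 of them was above 0, with a median of -0.41 (Csf3r 10070 and 7362, S100a9 4340 and 3136). Of the 25 lists, 16 had a median above 0 and 10 a median above that of all genes, so the direction of 6 lists turns with the scaling.

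Gate make-up alone would give part of these ratios. Each gate was given its tag 3 profile and only the gate shares were changed to those of tag 4. With this, 66 of the 74 called genes moved in the measured direction, as did 388 of all 438 measured genes, a like share. Over the 74 genes the median size of the log2 ratio was 1.18 as measured, 0.57 from make-up and 0.60 in what was left. For Pdcd1 make-up gave 0.54 of 1.28, for Foxp3 0.69 of 1.22, for Hmga2 1.01 of 1.60 and for Siglece -0.29 of -0.37. Past 2-fold were 4 of the 74 genes by make-up alone and 20 in what was left. What was left can still hold cell make-up within a gate. In the mixed gate, 233 of 621 cells of tag 3 and 79 of 146 of tag 4 carried markers of 2 or more lineages. The size of that part was not tested, and the median from make-up was larger with a gate minimum of 5 molecules.

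**Figure D2:**
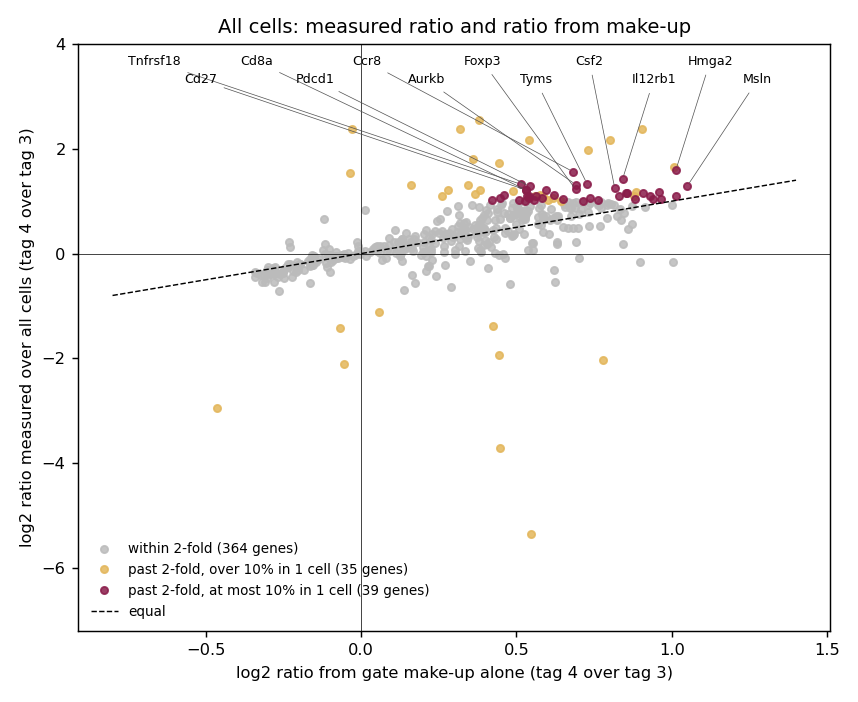
Each point is 1 of 438 measured genes: log2 ratio expected from gate make-up alone (x) and measured over all cells (y), tag 4 over tag 3; the dashed line marks equal values and the 12 named genes are labelled. All 65 genes called higher lie above the line. This follows mostly from the 2-fold call, since make-up alone was past 2-fold for 4 of the 74 called genes. All 9 below -1 have over 10% of their molecules in 1 cell.

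Within the neutrophil gate the tags were nearly alike. Of 308 measured genes 24 were called (7.79%), 6 higher (1.95%) and 18 lower (5.84%), and the median size of a log2 ratio was 0.14, against 0.43 over all cells. Siglece was at 558 CPM in tag 3 (541 to 576) and 557 in tag 4 (518 to 599), and was seen in 44.3% of neutrophils in both tags and in 7.49% and 7.25% of T cells. Cd274 was at 4647 (4598 to 4698) and 4450 (4337 to 4565). Both genes were lower in tag 4 over all cells, beside a lower share of neutrophils, and near level within them.

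The neutrophil gene lists were also near level. Of 7 neutrophil maturation and granule genes measured in the gate none was called, with Csf3r at 14847 and 14011, Mmp9, a matrix protease of granules, at 2230 and 2531, and the integrin Itgam at 1885 and 1870. None of the 5 genes of the CXCR2 axis was called, with Cxcl2, which draws neutrophils, at 34325 and 32038, and its receptor Cxcr2 at 665 and 619. In the suppressive myeloid list 2 of 11 were called lower: Arg1, an arginine-degrading enzyme, at 88.4 (81.7 to 95.6) and 13.6 (8.05 to 21.5), with 19.0% of the tag 3 molecules in 1 cell, and the scavenger receptor Msr1 at 6.43 and 1.51. In tag 4 Msr1 rests on 2 molecules, both in 1 cell. Arg2, related to Arg1, was level between tags, at 3931 and 3911, as was the ectoenzyme Entpd1 (2906 and 2858). Tlr8 (8.10 and 3.02) and Lamp3 (5.59 and 2.27) were also lower and rest on 4 and 3 molecules in tag 4. Shares of neutrophils in 3 states overlapped: high in Chil3, a mark of immature cells, 0.905% and 1.29%; high in Ccl3, an inflammatory chemokine, 26.9% and 25.7%; and low in S100a8, 40.7% and 39.2%. These states are ranges of a level: 350 and 61 neutrophils lay within 20% of the Ccl3 limit. The Chil3-high share depends on the gates. With the T cell gate built from Cd3e and Cd3g alone it was 2.04% in tag 3 and 2.70% in tag 4, again with overlapping intervals.

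**Figure D3:**
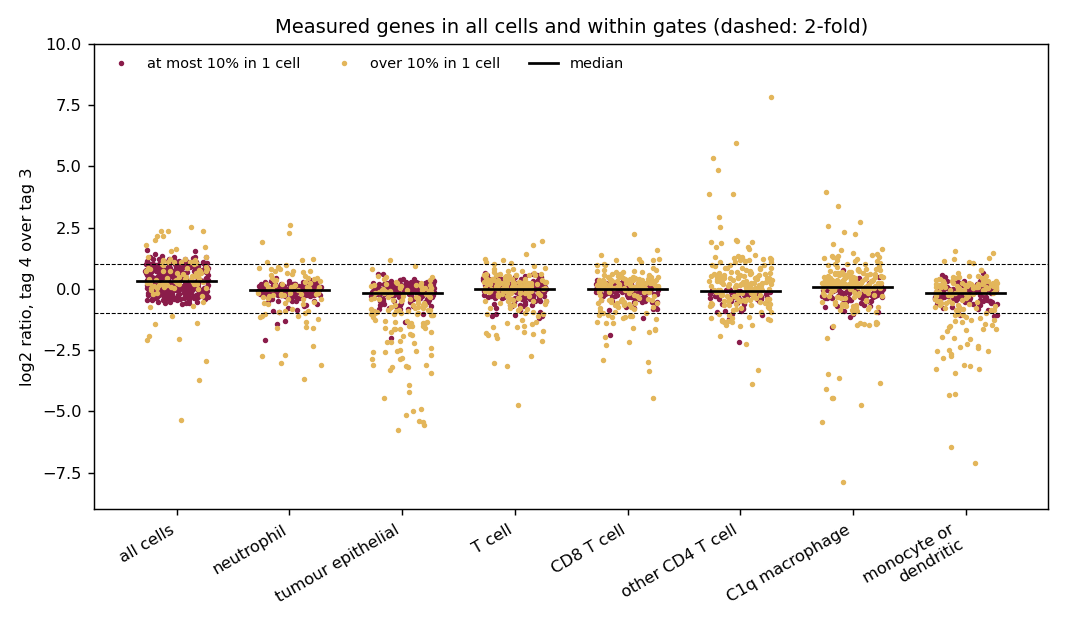
Log2 ratio of tag 4 over tag 3 for every measured gene over all cells and within 7 gates; yellow points have over 10% of the molecules of the higher tag in 1 cell, black bars are medians and dashed lines 2-fold. The neutrophil gate is the tightest, with a median size of 0.14, and most points past 2-fold in the small gates are yellow.

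In the smaller gates most calls rested on single cells: 60 of 63 in tumour cells, 30 of 35 in T cells, 43 of 46 in C1q macrophages and 46 of 49 in monocytes or dendritic cells had over 10% of the higher tag's molecules in 1 cell. Genes are named below where no cell passed that share, or as called or most abundant members of a list. Tag 3 has more cells, and in the T cell gate 232 of 333 genes met the limit in tag 3 and 136 in tag 4. The gap was wider in C1q macrophages (165 and 15 of 263), other CD4 T cells (80 and 12 of 240) and CD8 T cells (150 and 55 of 255). In C1q macrophages and other CD4 T cells, few genes could therefore have been named as higher in tag 4. The limit thus favours genes that are lower in tag 4, and that direction is not read as a result.

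Within T cells no checkpoint, costimulation or regulatory gene carried by many cells was past 2-fold. Of 333 measured genes 35 were called (10.5%), 8 higher (2.4%) and 27 lower (8.11%), with a median log2 ratio of 0.01. With a gate minimum of 5 molecules 20 were higher and 14 lower, with 15 of the 35 calls shared, so no direction is read from these counts. Pdcd1 was at 3902 CPM in tag 3 (3709 to 4102) and 5440 in tag 4 (5085 to 5813), a log2 ratio of 0.48 that was not called. None of the 9 regulatory T cell genes was called, though 8 were above 0, with Tnfrsf18, a costimulatory receptor, at 4082 and 6025, and Ctla4 at 7183 and 7556. Among T helper genes Il17a, Il17f and Il5 were called higher, the interleukins of type 17 and type 2 responses, but from few cells: Il17a came from 6 cells of tag 3 and 4 of tag 4, Il17f from 3 and 3, and Il5 from 5 and 7. Without the most loaded cell of each tag Il17f turned to -0.58.

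The 5 genes of the T cell gate that met the limit did so through tag 3, where they were higher, and in tag 4 a single cell held between 10.8% and 19.4% of each. Slfn4 and Tlr6 are known from myeloid cells. Ccl3, an inflammatory chemokine, was at 4423 in tag 3 and 2042 in tag 4, the membrane protein Cd9 at 2340 and 1033, the growth factor Csf1 at 405 and 193, Tlr6 at 230 and 106, and Slfn4 at 1836 and 915. The summed level of the 5 monocyte and dendritic markers in this gate was 7664 in tag 3 and 3262 in tag 4, with no marker at 0 in either tag, and the summed S100a8 and S100a9 level was 26812 and 23634. The part of other cells in these ratios was not tested. With a gate minimum of 5 molecules the log2 ratio was -0.24 for Ccl3 and -0.49 for Cd9, and Csf1 alone of the 5 was called under all 8 alternatives.

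In CD8 T cells the checkpoint genes, Ccl5 and most cytotoxic genes of the tags were within 2-fold. Of 255 measured genes 33 were called (12.9%), 9 higher (3.53%) and 24 lower (9.41%). This balance turned to 35 higher and 9 lower with a gate minimum of 5 molecules, sharing 13 of the 33 calls, and was 0 higher and 30 lower without the most loaded cell of each tag. Pdcd1 was at 6433 (6066 to 6818) in tag 3 and 8574 (7928 to 9259) in tag 4, a log2 ratio of 0.41. With a gate minimum of 5 marker molecules this ratio was 0.049. None of the 8 measured checkpoint genes was called, with Ctla4 at 5246 and 5492 and Tigit at 3709 and 3912. Of 14 cytotoxic genes 1 was called, Ifng, at 2921 (2675 to 3184) and 5914 (5379 to 6487), of which 1 cell held 48.8% in tag 4, and without that cell and its counterpart in tag 3 the log2 ratio was 0.17. The granule genes Nkg7 (29330 and 33257) and Gzmb (21800 and 17860) were within 2-fold. Ccl5, the most abundant of the list, was not called either, at 54485 (53404 to 55581) in tag 3 and 30821 (29584 to 32095) in tag 4, a log2 ratio of -0.82. All 8 proliferation genes were above 0 and none was called, with Top2a at 2347 and 3767. Zeb1 and Tnfrsf13b met the limit through tag 3, on 34 and 43 molecules there and 4 and 8 in tag 4.

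**Figure D4:**
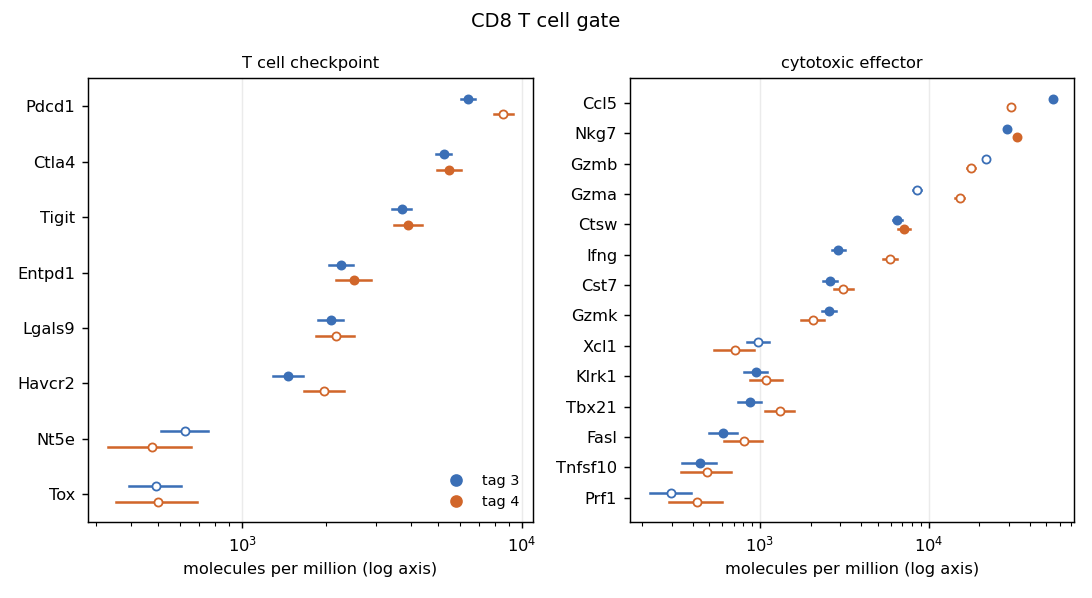
CPM in the CD8 T cell gate (137 cells of tag 3, blue; 56 cells of tag 4, orange) for the measured checkpoint and cytotoxic genes on log axes; lines are exact 95% Poisson intervals, and open points have over 10% of the molecules in 1 cell. The 8 checkpoint genes are within 2-fold, as is Ccl5 (54485 and 30821).

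In other CD4 T cells, 81 in tag 3 and 33 in tag 4, the naive and memory transcription factors Lef1 and Tcf7 were called, beside a difference in markers of other cells. Of 240 measured genes 55 were called (22.9%), 32 higher (13.3%) and 23 lower (9.58%), and 51 of these rest on 1 cell by the 10% limit. Without the most loaded cell of each tag 11 were higher and 30 lower. The summed monocyte and dendritic markers in the gate were at 1625 in tag 3 and 6544 in tag 4, S100a8 and S100a9 at 31457 and 42231, and the T cell markers at 17787 and 13319, and the myeloid genes H2-Aa, H2-Eb1, H2-DMa, Arg1, Cd68 and Itgam were called higher. The part of other cells in the gate's ratios was not tested. Lef1 was at 910 in tag 3 (703 to 1160) and 205 in tag 4 (88.3 to 403), a log2 ratio of -2.15, and was seen in 42.0% and 18.2% of cells at a median depth of 678 and 883 molecules. Tcf7, its partner in naive and stem-like T cells, was at 4552 (4070 to 5075) and 2173 (1736 to 2687), a log2 ratio of -1.07. In neutrophils Lef1 was seen in 0.302% and 0% of cells. Of the 6 measured naive and memory genes these 2 were called, the median was -0.46 against -0.07 over all genes, and the lymph node homing receptor Ccr7 was level (5322 and 5931). Both met the 10% limit through tag 3, and in tag 4 a single cell held 37.5% of Lef1 and 15.3% of Tcf7. Lef1 was called under all 8 alternatives, and Tcf7 lost the call as a mean per cell and stood at -0.54 with a gate minimum of 5 molecules. Among the 8, leaving out the 5% largest cells of each tag removed no cell of this gate. It kept all 55 calls and could not have changed any. Gpr18 and Cd247, the zeta chain of the T cell receptor, were the other named genes, at 476 and 205 and at 4216 and 2096.

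Tumour cells had no called gene in the class II, interferon response and proliferation lists. Of 319 measured genes 63 were called (19.7%), 1 higher (0.313%) and 62 lower (19.4%). Other lists held many of the lower calls: 6 of 9 cytotoxic effector genes, 4 of 4 costimulation genes and 5 of 9 dendritic genes. Of the 63 calls, 60 had over 10% of the higher tag's molecules in 1 cell. Of the 7 class II antigen presentation genes none was called, with H2-Aa at 13509 in tag 3 and 15092 in tag 4, H2-Eb1 at 7400 and 9496 and H2-DMa at 1637 and 2070. H2-Aa was seen in 86.8% and 94.3% of tumour cells and in 17.4% and 16.7% of neutrophils. None of 8 interferon response genes was called, with Ifitm3 at 18284 and 21557 and Cxcl10 at 1658 and 1807, nor any of 8 proliferation genes, with Top2a at 1040 and 1225. Cd274 was at 1181 (1120 to 1244) and 907 (838 to 981), a log2 ratio of -0.38. The 3 genes that met the 10% limit are known from leukocytes: Ighm (327 and 81.6), the immunoglobulin heavy chain; Selplg (177 and 70.1), a selectin ligand; and Irf8 (956 and 472), a factor of myeloid and B cells. In tag 4 a single cell held 54.4% of Ighm, 14.3% of Selplg and 5.45% of Irf8. The T cell markers in this gate summed to 14.9 and 18.6, and the B cell markers to 19.0 and 20.03 with 2 of 4 at 0 in both tags. The part of other cells was not tested.

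In C1q macrophages Arg1 was 1 of 3 called genes that met the 10% limit, all through tag 3. It was at 29922 CPM in tag 3 (29444 to 30404) and 10294 in tag 4 (9752 to 10858), a log2 ratio of -1.54, and was seen in 65.8% and 44.4% of cells at a median depth of 3372 and 2737 molecules, and in 4.61% and 3.62% of T cells. In tag 4, 1 of 36 cells held 27.5% of it, and without the most loaded cell of each tag the ratio was -1.87. A gate minimum of 5 molecules gave -0.83, and leaving out the 5% largest of all cells of each tag gave -0.86. The latter took more than 5% of this gate, and more in tag 3. The gate was 1.68% and 2.48% of cells before and 1.29% and 2.24% after. Beside it, C1qa, a gate marker, was seen in 61.3% of gated cells of tag 3 and 38.9% of tag 4, and the summed gate markers were at 12713 and 6123. How far the ratio follows from which cells entered the gate was not tested.

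Of 263 genes measured in these macrophages 46 were called (17.5%), 25 higher (9.51%) and 21 lower (7.98%), or 20 higher and 26 lower by the median of ratios and 13 higher and 29 lower without the most loaded cell. In the suppressive myeloid list 4 of 14 were lower and 1 higher, with a median of -0.34. The mannose receptor Mrc1 was at 2379 and 907, while Cd163 (1178 and 68.6), Retnla (5002 and 114) and Chil3 (375 and 5879) had 45.3%, 98.5% and 88.2% of the higher tag's molecules in 1 cell. Spp1 was level at 17809 and 17049, and the haem-degrading Hmox1 was at 12214 and 7793. In the complement and scavenger list 4 of 8 were lower, which were Mrc1, Cd163, Cd36 and Fcna, and the abundant C3 (2744 and 4186) and Cd68 (4481 and 3767) were not called. Without the 5% largest of all cells of each tag Cd163, Retnla, Cd36 and Fcna turned above 0, and Mrc1 stayed below -1. Proliferation genes were higher in 5 of 8 (Mki67, Top2a, Ube2c, Tyms, Aurkb), with between 42.3% and 71.6% of tag 4 molecules in 1 cell. Class II genes were within 2-fold, with H2-Aa at 40308 and 35494, except Cd80, which rests on 14 molecules in tag 4. Socs2 (273 and 122) and Il7r (459 and 229) were lower, and lost the call as means per cell and without the 5% largest of all cells.

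**Figure D5:**
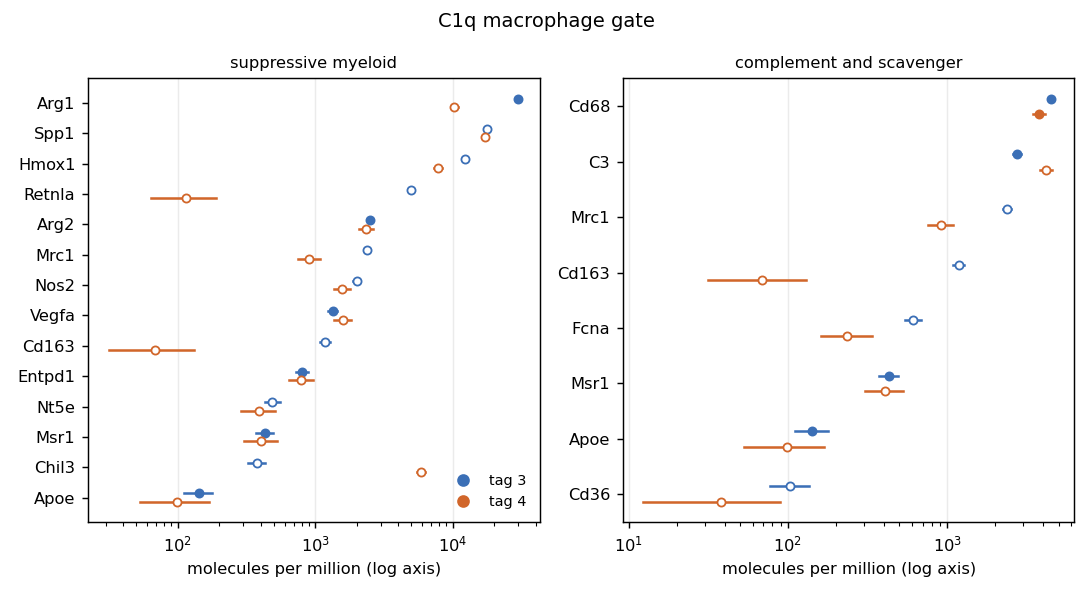
CPM in the C1q macrophage gate (111 cells of tag 3, blue; 36 cells of tag 4, orange) for the measured suppressive myeloid and complement or scavenger genes on log axes; lines are exact 95% Poisson intervals and open points have over 10% of the molecules in 1 cell. Arg1 stands at 29922 and 10294, and nearly all tag 4 points are open.

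In the monocyte or dendritic gate 5 dendritic genes were called lower in tag 4, mostly through single cells, and Cd74 and H2-DMa were not called. Of 264 measured genes 49 were called (18.6%), 7 higher (2.65%) and 42 lower (15.9%). In the dendritic list 5 of 6 were lower: Irf8, a factor of conventional dendritic cells, at 4086 (3868 to 4314) and 1915 (1674 to 2180), Ccr7, which leads mature dendritic cells to lymph nodes, at 5890 and 605, Fscn1, an actin bundler of mature dendritic cells, at 3775 and 647, Itgae at 1104 and 521, and Il12b with 700 molecules in 10 cells of tag 3 and 0 molecules in tag 4. Of these Irf8 was seen in 57.0% and 57.4% of cells, and 1 cell held 8.32% of its molecules in tag 3 but 27.2% in tag 4. For the other 4, 1 cell held between 17.9% and 47.7% of the tag 3 molecules. Irf8 stood at -0.97 under TMM, where the call is lost. The gate marker Flt3 of dendritic cells was at 1057 and 420 and Ccr2 of monocytes at 1975 and 1948, and fewer dendritic cells in the gate and less of these genes per dendritic cell cannot be told apart. Of 6 class II presentation genes measured, Cd80 and Cd40 were lower and Cd74 (5287 and 5602), H2-DMa (3566 and 4073) and Cd86 (1622 and 1201) were not called. Selplg was at 852 and 412.

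The mixed gate carried the T cell genes once more. Of its 411 measured genes 100 were called (24.3%), 88 higher (21.4%) and 12 lower (2.92%). The named genes include Tnfrsf18 (326 and 1020), Cd3e (246 and 749), Icos (245 and 742), Pdcd1 (277 and 805) and Tigit (322 and 874). Scaling by TMM leaves 52 higher and 17 lower. In ungated cells 51 of 293 were called (17.4%), 34 higher (11.6%) and 17 lower (5.8%), or 8 higher and 23 lower without the most loaded cell of each tag, and 735 of 939 cells in tag 3 and 126 of 157 in tag 4 held at least 3 molecules of Csf3r, Cxcr1 and Cxcr2.

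The pair of tags without anti-PD-1, isotype control and anti-Siglec-E alone, also differs in Siglec-E blockade. It therefore gives no measure of differences between suspensions alone. On 393 genes read from all 4 tables, 50 of 358 were higher and 9 lower in tag 2 than in tag 1 (16.5% called), and 59 of 364 were higher and 6 lower in tag 4 than in tag 3 (17.9% called). Cells with at least 3 Cd3 molecules and under 20% of S100a8 and S100a9 were 3.21% (2.55 to 3.99) in tag 1, 5.87% (4.74 to 7.18) in tag 2, 6.98% (6.38 to 7.62) in tag 3 and 13.1% (11.4 to 15.0) in tag 4. The difference between the pairs was not tested.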

How the data were processed

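Cells of dissociated tumours were labelled with sample tags, captured on BD Rhapsody cartridges and sequenced for a targeted panel. The deposited values are counts of molecules per cell and gene; per the file headers they come from the BD Rhapsody Targeted Analysis Pipeline 1.12.1 with refined cell calling. Per the submitters' processing notes, Seurat 3.2.0 was used. Aligner and build: not given in the sources used here. No doublet caller was run; the mixed gate holds cells with markers of more than 1 lineage.

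Counts were summed per tag and gate and scaled to 1000000 molecules (Python 3.11.15, pandas 2.3.3, scipy 1.17.1). Genes with at least 30 molecules in both tags together were measured. Within gates other than the mixed gate, the markers of all lineage gates and S100a8 and S100a9 were left out. The monocyte and dendritic markers were left out only in the monocyte or dendritic, neutrophil and ungated gates. In T cell subsets Cd4, Cd8a, Cd8b1 and Foxp3 were left out as well. With 1 suspension per arm no test was run; genes past 2-fold were called, with TMM factors from edgeR 4.0.16 as an alternative. Named genes are the 12 highest and 12 lowest called with at most 10% of the higher tag's molecules in 1 cell, the antibody targets, and called or the 3 most abundant members of described lists. All members, gates and lists were chosen with earlier results of these data known. That T and NK markers count as 1 lineage, and class II markers only in cells of no other lineage, was settled after seeing overlaps. The code was tested on simulated data. From tag 1, whose gene names carry other identifiers, 393 genes shared with the other tables by symbol were read.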

Additional observations from a re-analysis of the deposited data

How the results depend on the processing

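No paired analysis was possible because each arm is 1 suspension and tags carry no replicate numbers. The log2 ratios of gate shares moved by less than their 95% counting error in 129 of 136 alternatives, and those of neutrophil states in 18 of 18. Part of the 129 was fixed in advance. A changed neutrophil rule, for example, can alter only the neutrophil and ungated gates, so the count overstates how stable the ratios are. After thinning to 500 molecules (358 and 80 cells left out) the log2 ratio was -0.16 for C1q macrophages, 1.16 for monocytes or dendritic cells, 0.67 for mixed and -0.11 for ungated cells. It was -0.21 for neutrophils as a share of gated leukocytes, 0.46 for mixed cells with the T cell gate without Cd3d, and -0.078 for remaining T cells with 2 marker molecules. The ratios of T cells (0.70 to 0.98), tumour cells (1.26 to 1.42), CD8 T cells (0.88 to 1.21) and Foxp3-positive T cells (1.27 to 1.60) kept their direction in every alternative run.

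Counts of called genes moved more. Over all cells they were 27 under TMM, 25 by the median of ratios, 38 without S100a8, S100a9 and Fth1 in the total, 170 at 1.5-fold, and 39 when 1 cell may hold at most 10%. The last limit, added after seeing the data, left 3 in tumour cells, 5 in T cells, 3 in C1q macrophages, 3 in monocytes or dendritic cells, 3 in neutrophils, 32 in mixed, 2 in ungated, 2 in CD8 and 4 in other CD4 T cells. At 1.5-fold the counts in that order were 98, 69, 91, 77, 49, 161, 84, 68 and 101. With a minimum of 1 molecule they were 60 in T cells, 90 in C1q macrophages, 95 in monocytes or dendritic cells, 55 in neutrophils, 86 in ungated, 63 in CD8 and 111 in other CD4 T cells. With a minimum of 100 molecules they were 31 in tumour cells, 21 in T cells, 29 in monocytes or dendritic cells, 10 in neutrophils, 21 in ungated, 15 in CD8 and 23 in other CD4 T cells. The mixed gate had 65 by the median of ratios, ungated cells 31 without the most loaded cell, and CD8 T cells 52 with cells mixed from 10%. With a gate minimum of 5 molecules the median make-up ratio was 0.73.

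Of named genes, Il17f in T cells turned to -0.58 without the most loaded cell, and Gpr18 in other CD4 T cells to 0.040 with 5 marker molecules. Without the 5% largest of all cells of each tag, Cd163 turned to 1.64, Retnla to 1.92, Cd36 to 0.47 and Fcna to 1.53 in C1q macrophages. Precision is limited by small gates, such as 36 C1q macrophages and 33 other CD4 T cells in tag 4, and each arm is 1 suspension.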
